A study of Mus musculus with 4 samples.

Results

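Cytochrome P450 genes were followed in single cells of the mouse small intestine after a control or a ketogenic diet. The members are all gene symbols that begin with Cyp, a digit and a further letter or digit, except Cyp51, with at least 10 unique molecular identifiers (UMIs, each counting 1 captured transcript) over all cells. There were 33 such genes among 101 P450 symbols and 27998 gene symbols in all. The groups compared were the libraries labelled ControlDiet and those labelled KetoDiet, each with 2 libraries, named here control 1, control 2, ketogenic 1 and ketogenic 2. No source used here gives the strain, genotype, age or time on the diets, and nothing states that the libraries came from separate animals, so p-values measure only the spread between libraries, which may be technical.

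P450 enzymes are heme proteins that insert oxygen into fats, sterols, drugs and food toxins, with electrons passed to them from NADPH by the reductase Por. The CYP1, CYP2 and CYP3 families act mainly on foreign compounds and on arachidonic acid, the CYP4 family hydroxylates fatty acids at their tail end, and further families act on sterols and steroid hormones. In the small intestine they are best known from enterocytes, the absorptive cells, where they meet food compounds before the liver does.

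The libraries held 3549, 4896, 3194 and 3414 cells in the order control 1, control 2, ketogenic 1 and ketogenic 2, with 27316428 to 34106639 UMIs each. The authors' 7 cell types were used, and 6 of 7 marker lists were highest in their own type in every library. The exception was the goblet list, which summed to 57004 to 98485 UMIs per 1000000 (CPM, the level used throughout) in Paneth cells and 72604 to 84964 CPM in goblet cells. Enterocytes made up 52.7 to 60.7% of a library's cells. Markers of most other tissues were scarce in enterocytes. The summed level of 9 immune markers was 1.98 to 2.72 CPM for control and 0.268 to 2.19 for ketogenic enterocytes. Of these 9, 7 had a UMI, and Ms4a1 and Lyz2 were at 0. The 7 fibroblast and muscle markers summed to at most 0.183, with Col1a2, Pdgfra and Myh11 at 0. Endothelial, mast cell and neural markers summed to at most 0.853, 2.01 and 1.74, with Cdh5, Mcpt2, Cpa3 and Sox10 at 0. The 5 liver markers were higher, at 28.5 to 58.8 CPM in control and 53.5 to 58.2 in ketogenic enterocytes, with Fgb at 0. The part of the liver markers in the P450 values was not tested. Any 2 libraries shared 10 to 26 cell barcodes. The share of cells with at least 10% mitochondrially encoded UMIs was 38.0 to 45.0%.

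The 33 genes gave 36732 UMIs, which is 0.0304% of all UMIs. The levels of different genes are 3' UMI counts that are not scaled by length, since each transcript is counted at its 3' end. Cyp4f14 had 6996 UMIs, Cyp2j6 4998, Cyp2c65 3252, Cyp4f16 2943 and Cyp4v3 2801, and these 5 genes held 57.1% of the P450 UMIs. By family, 16 CYP2 genes held 42.0%, 8 CYP4 genes 42.9% and 4 CYP3 genes 7.48%. CYP11, CYP17, CYP20, CYP27 and CYP39 had 1 gene each.

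Of the other P450 symbols, 22 had 1 to 9 UMIs and 46 had none in 15053 cells, where a count of 0 allows up to 0.0248 CPM over all cells (3 counts of the total, counting error only). The symbols at 0 included Cyp1a1, Cyp1a2 and Cyp1b1, the targets of the aryl hydrocarbon receptor, and Cyp4a14, another fatty acid hydroxylase. These are levels in the deposited counts. Reads shared by near-identical genes can be lost or split, and no source used here says how such reads were handled. In the last 500 bases of each member's longest coding transcript in GENCODE M21, 16 of the 32 members found there had at least 1 window of 50 bases that another gene's transcript also holds. The share of windows was over 10% in 4 of them: 51.2% for Cyp2c68, 25.7% for Cyp2d26, 21.5% for Cyp2c66, whose shared windows are those of Cyp2c65, and 18.8% for Cyp2e1. Values of these 4 genes are less certain for that reason, whereas the share was 5.99% for Cyp4a10, 1.55% for Cyp4f14 and 0% for Cyp3a13, Cyp2u1 and Cyp2j6.

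Some of the genes lie in family clusters on the GRCm38 (mm10) genome. Others lie alone, such as Cyp2u1 on chromosome 3 and Cyp4v3 on chromosome 8. The 5 CYP4F members, Cyp4f16, Cyp4f40, Cyp4f15, Cyp4f14 and Cyp4f13, span 411 kb of chromosome 17. The 6 CYP2C members with a position span 1180 kb of chromosome 19, among them Cyp2c55, Cyp2c65 and Cyp2c66 side by side. Cyp4a10 (chromosome 4, 115518264 to 115533649, plus strand) lies 91.1 kb from the end of the next member, Cyp4b1 (115624725 to 115647723, minus strand), and was the member with a called diet effect in enterocytes. Cyp3a13 (chromosome 5, 137892932 to 137921619) lies apart from Cyp3a11, Cyp3a25 and Cyp3a59, which are neighbours on the same chromosome.

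Promoters of Cyp2c65, Cyp2c66, Cyp2c68 and Cyp2c55 are shown because the first pair are neighbours whose ketogenic libraries both lay above the control ones in transit amplifying cells, without passing the test (values further on), Cyp2c68 is a relative without that pattern, and Cyp2c55 is the next neighbour at low counts. Each line gives the 180 bases before the RefSeq start of the gene on GRCm38.p6, read along the gene's strand: chr19:39060826-39061005 and chr19:39113718-39113897 (plus strand), chr19:39741102-39741281 (minus strand) and chr19:39006839-39007018 (plus strand). Capitals mark CAAAGTCCA, a core of sites bound by the enterocyte and liver factor HNF4, or, in Cyp2c66, the bases aligned with it.
Cyp2c65: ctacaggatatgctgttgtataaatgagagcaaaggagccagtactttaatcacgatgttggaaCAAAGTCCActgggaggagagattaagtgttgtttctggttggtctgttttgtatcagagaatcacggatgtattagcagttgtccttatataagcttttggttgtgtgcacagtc
Cyp2c66: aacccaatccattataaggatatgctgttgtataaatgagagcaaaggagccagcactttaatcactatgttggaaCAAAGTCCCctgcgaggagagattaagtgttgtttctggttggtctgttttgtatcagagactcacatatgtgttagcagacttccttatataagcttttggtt
Cyp2c68: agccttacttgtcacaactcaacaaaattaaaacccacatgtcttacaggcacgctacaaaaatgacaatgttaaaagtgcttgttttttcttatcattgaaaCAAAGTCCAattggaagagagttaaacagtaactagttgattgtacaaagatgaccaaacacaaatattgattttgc
Cyp2c55: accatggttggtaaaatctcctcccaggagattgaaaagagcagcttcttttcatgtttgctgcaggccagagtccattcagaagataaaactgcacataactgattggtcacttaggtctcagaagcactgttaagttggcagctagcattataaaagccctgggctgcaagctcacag
The promoters of Cyp2c65 and Cyp2c66 had the same base at 94.1% of 221 aligned positions within the 250 bases before the start, against 73.6% of 197 for Cyp2c65 and Cyp2c68 and 71.4% of 217 for Cyp2c65 and Cyp2c55. The motif starts 116 bases before the start of Cyp2c65. In Cyp2c66 the aligned bases carry A9C, the motif's base first and its position counted from 1 at the 5' end of the motif. Within 300 bases (250 before to 50 after the start, both strands), CAAAGTCCA was in the promoters of Cyp2c65, Cyp2c68, Cyp2c70 and Cyp3a11, that is in 4 of the 27 members with an entry, and in 0.475% of all 32851 promoters. The letters AGGTCANAGGTCA, a repeat of the kind bound by fatty acid receptors, were in 0 of the 27 and in 0.0396% of all promoters. Cyp4a10, Cyp17a1, Cyp2c44, Cyp2d22, Cyp2u1 and Cyp39a1 have no entry there. A match is a description of these letters and not of binding.

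In enterocytes, 1 of 26 tested members passed the threshold between the diets, an adjusted p under 0.05 in edgeR's quasi-likelihood test on counts summed per library. It was Cyp4a10, a fatty acid hydroxylase that is a textbook target of the fatty acid receptor Ppara, and it rose on the ketogenic diet. Of all 11697 genes tested, 0.18% passed and 0.0769% passed as higher. The other 7 members were too low for the test. The median log2 fold change (ketogenic against control) was -0.02 over the tested members and 0.02 over all genes tested, with 13 members higher and 13 lower.

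Cyp4a10 stood at 0.218 and 0.466 CPM in enterocytes of control 1 and control 2, and at 16.3 and 6.51 in ketogenic 1 and ketogenic 2. Both ketogenic libraries were far above both control libraries, and ketogenic 1 was the higher. The counts behind these levels were 4 and 9 UMIs against 236 and 110. The log2 fold change was 5.01 ± 0.61 (SE, n = 2 libraries per diet; edgeR adjusted p = 0.0473). Per UMI of enterocytes the ketogenic counts were 31.9 times the control counts, with an exact 95% interval of 18.4 to 60.6 that covers counting error only. The gene was called in enterocytes under every alternative run, with log2 fold changes from 4.20 to 5.63.

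The rise was also one of cells with the transcript. In the control libraries 4 of 2156 and 8 of 2771 enterocytes held a Cyp4a10 UMI, and in the ketogenic libraries 159 of 1748 (9.10%) and 76 of 1799 (4.22%) did. After each cell was thinned to 3000 UMIs the shares were 0% and 0.179% in control and 3.70% and 1.21% in ketogenic enterocytes, so that the diets remained apart at equal depth. This left out 297 and 539 shallower control enterocytes and 290 and 230 ketogenic ones. Tuft cells and enteroendocrine cells gave no Cyp4a10 UMI in any library, for example in none of 186 and 95 ketogenic enteroendocrine cells, whose median depths of 6624.5 and 6126 UMIs were below the 9323 and 9629 of ketogenic enterocytes. In these 2 types, 0 counts allow up to 1.73 CPM in ketogenic tuft cells and 1.64 in ketogenic enteroendocrine cells. In ketogenic 1 and ketogenic 2 the gene gave 7 and 2 UMIs in transit amplifying cells, 5 and 2 in goblet cells, 3 and 2 in stem cells and 1 and 0 in Paneth cells, and 0 in the control libraries of these types. The share of goblet cells with a UMI was 0.420% and 0.411% in the ketogenic libraries, at median depths of 9268 and 9074 UMIs.

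**Figure D1:**
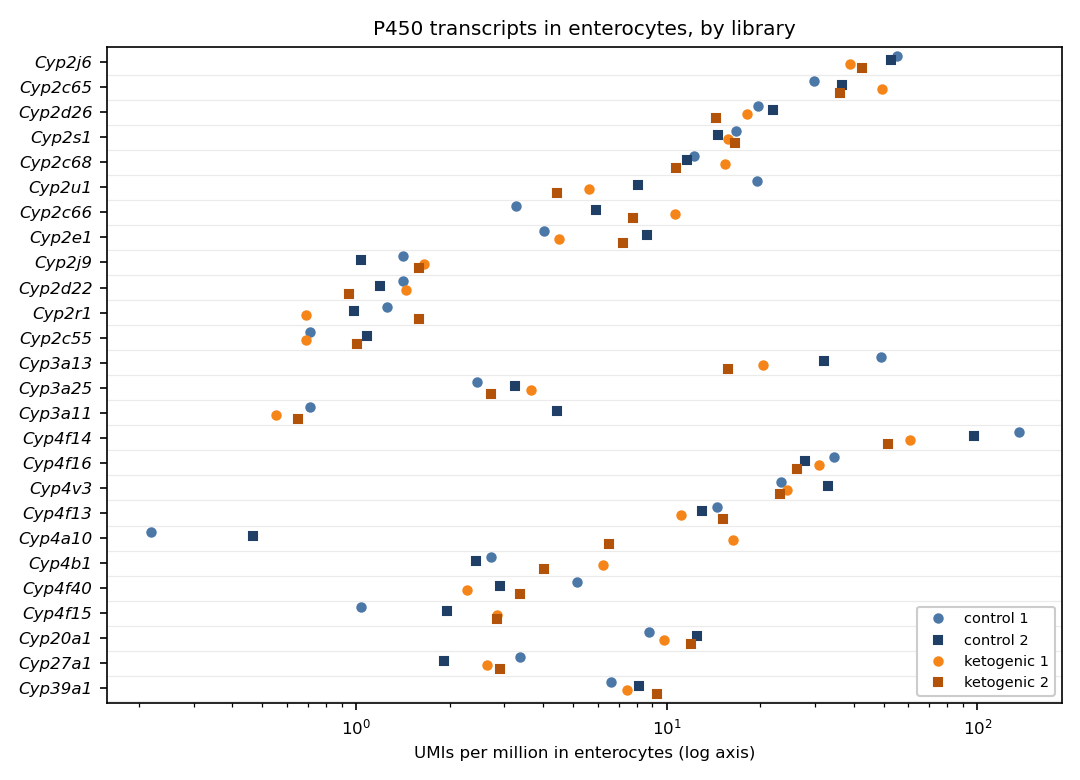
Each row is a P450 gene tested in enterocytes, grouped by family, and each point is 1 library, placed by its CPM on a log axis. Cyp4a10 is the row where the ketogenic points (16.3 and 6.51) lie far to the right of the control points (0.218 and 0.466), and Cyp4f14 is the most abundant gene in every library.

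Several abundant members had lower levels on the ketogenic diet without passing the threshold. Cyp4f14, an enzyme that hydroxylates vitamin E and leukotrienes, stood at 136 and 97.8 CPM in control 1 and control 2 and at 60.6 and 51.7 in ketogenic 1 and ketogenic 2. The diets did not overlap, and the spread between the control libraries was wide. The log2 fold change was -1.06 ± 0.17 (SE; edgeR adjusted p = 0.0954). Cyp3a13, the main CYP3 gene here and an oxidiser of drugs and steroids, stood at 48.9 and 32.2 against 20.5 and 15.7, with a log2 fold change of -1.17 ± 0.22 (edgeR adjusted p = 0.132). Cyp2u1, a hydroxylase of long fatty acids, stood at 19.6 and 8.07 against 5.61 and 4.44 (log2 fold change -1.46 ± 0.41, edgeR adjusted p = 0.287). In all 3 genes control 1 was the highest library, and for Cyp2u1 the gap between the control libraries exceeded that between control 2 and either ketogenic library.

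Cyp2j6, of a subfamily known for making epoxides of arachidonic acid, differed less: 55.0 and 52.6 CPM against 38.8 and 42.5, a log2 fold change of -0.41 ± 0.11 (edgeR adjusted p = 0.277). Here the libraries of each diet lay close together and the diets did not overlap. Cyp2d26, from the drug oxidising CYP2D group, was at 19.6 and 22.0 against 18.1 and 14.4 (log2 fold change -0.36 ± 0.15, edgeR adjusted p = 0.505), also with no overlap. Cyp3a11, a broad drug oxidiser of the liver, was at 0.709 and 4.45 against 0.554 and 0.651 (log2 fold change -2.09 ± 0.84, edgeR adjusted p = 0.486). That difference rests on control 2, where 86 UMIs came from 30 cells. Without control 2 its log2 fold change was -0.25.

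Other members had higher levels on the ketogenic diet, again without passing. Cyp2c66, a neighbour of Cyp2c65 in the intestinal CYP2C cluster, stood at 3.27 and 5.90 CPM against 10.7 and 7.81 in ketogenic 1 and ketogenic 2, with a log2 fold change of 1.00 ± 0.30 (edgeR adjusted p = 0.333). The diets did not overlap. Cyp2c65 was at 29.8 and 36.6 against 49.1 and 36.1, where control 2 lay above ketogenic 2, with a log2 fold change of 0.36 ± 0.18 (edgeR adjusted p = 0.563). Cyp4b1, a hydroxylase of fatty acids and plant toxins, was at 2.73 and 2.43 against 6.23 and 4.02 (log2 fold change 0.98 ± 0.28, edgeR adjusted p = 0.297), and Cyp4f15 was at 1.04 and 1.97 against 2.84 in both ketogenic libraries (log2 fold change 0.91 ± 0.35, edgeR adjusted p = 0.468). Cyp4b1 and Cyp4f15 fall outside the rule for named genes and were chosen after their values were seen.

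The other named genes that could be tested overlapped between the diets in enterocytes. Cyp4f16 was at 34.4 and 27.8 CPM against 30.8 and 26.2, and Cyp4v3, the mouse counterpart of a human eye disease gene that hydroxylates fatty acids, at 23.2 and 33.0 against 24.4 and 23.2. Cyp4f13 was at 14.6 and 13.0 against 11.1 and 15.1, Cyp2s1 at 16.7 and 14.6 against 15.7 and 16.6, and Cyp2c68 at 12.2 and 11.6 against 15.4 and 10.7. Among the sterol enzymes, Cyp39a1, which acts on oxysterols, was at 6.60 and 8.12 against 7.48 and 9.29, and Cyp27a1, a mitochondrial sterol hydroxylase, at 3.38 and 1.91 against 2.63 and 2.90. Cyp20a1, whose substrate is unknown, was at 8.78 and 12.5 against 9.83 and 11.9, and Cyp2e1, which oxidises ethanol, at 4.04 and 8.64 against 4.50 and 7.22. Their absolute log2 fold changes were 0.24 or less. Cyp11a1, which starts steroid synthesis from cholesterol, and Cyp17a1, a steroid hydroxylase, were too low for the test, with 1 or 2 UMIs in each enterocyte library. Cyp11a1 was at 0.0546 and 0.0518 against 0.0692 and 0.118, and Cyp17a1 at 0.109 and 0.104 against 0.0692 and 0.0591. At 1 or 2 UMIs the order of the libraries tells nothing of the diets.

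Added up by family, CYP4 transcripts in enterocytes were at 217 and 179 CPM on the control diet and 155 and 133 on the ketogenic diet. CYP3 transcripts were at 52.3 and 40.1 against 24.8 and 19.5. CYP2 transcripts were at 166 and 167 against 163 and 146. The CYP4 and CYP3 sums follow Cyp4f14 and Cyp3a13, so that the total over all members was 454 and 409 against 363 and 322 although Cyp4a10 rose.

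At an unadjusted p under 0.05, 4 of the 26 members were higher and 5 lower in enterocytes, where 4.46% of all genes were higher and 5.45% lower. With no overlap between diets there were 5 higher and 6 lower members, where 22.9% of all genes were higher and 20.5% lower, so the members' share without overlap is near that of other genes. DESeq2 called Cyp4a10 higher and Cyp4f14, Cyp3a13 and Cyp2u1 lower, among 176 genes in all. Without control 2, edgeR called 5 members, with Cyp2c66 higher and Cyp4f14, Cyp3a13 and Cyp2u1 lower beside Cyp4a10, in a fit where 760 genes passed. Without control 1 it called 4, with Cyp4f14, Cyp3a13 and Cyp3a11 lower, in a fit where 228 genes passed. In such fits the lone control library is taken to vary like the ketogenic pair.

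**Figure D2:**
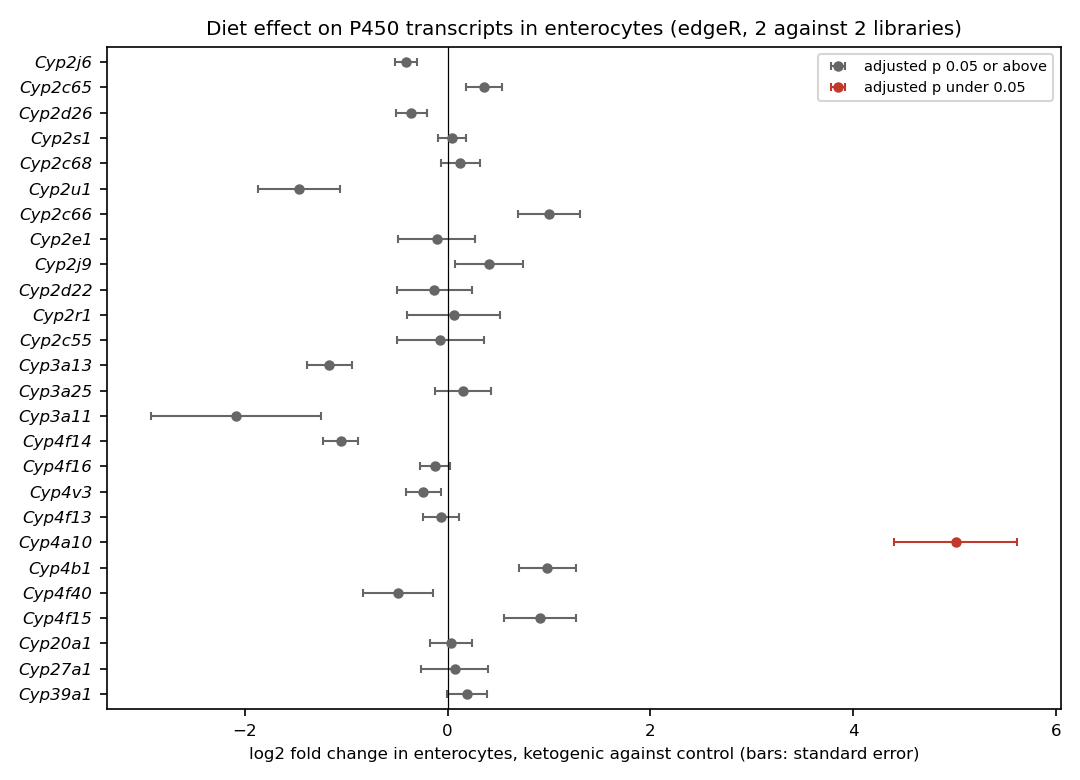
Points are log2 fold changes of P450 genes in enterocytes, ketogenic against control, with standard errors as bars, grouped by family as in the plot of levels. Cyp4a10 at 5.01 is the single gene drawn in red for an adjusted p under 0.05, and Cyp4f14 at -1.06, Cyp3a13 at -1.17 and Cyp2u1 at -1.46 lie to the left of 0.

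Signs of position along the gut and the villus were set beside these values. The 3 distal markers summed to 317 and 82.7 CPM in control and 154 and 162 in ketogenic enterocytes, with the diets overlapping. Distal enterocytes, with 3 or more UMIs of Fabp6, Slc10a2 and Osr2, made up 7.05% and 1.98% of control enterocytes and 1.66% and 5.17% of ketogenic enterocytes. Without them the log2 fold change of Cyp4a10 was 4.95. The 5 villus tip markers Ada, Nt5e, Slc28a2, Apoa4 and Krt20 summed to 290 and 301 CPM in control and 269 and 169 in ketogenic enterocytes, with 4 of 4 tested lower on the ketogenic diet, none past the threshold and none at 0. Krt20 alone was at 170 and 60.4 against 51.5 and 39.6, highest in control 1 as were Cyp4f14, Cyp3a13 and Cyp2u1. Krt20 was picked after its values were seen, and the sum of all 5 tip markers was highest in control 2 instead. The part of Krt20 or of the other tip markers in the values of these 3 P450 genes was not tested. The 5 proximal markers summed to 841 and 937 against 6849 and 3170, of which Fabp1, a fatty acid binding protein, made up 770 and 867 against 6788 and 3117. The other 4 had lower counts on the ketogenic diet, and none of the 5 passed in enterocytes. At an unadjusted p under 0.05 in edgeR, 1 was higher and 3 were lower, where 4.46% of all genes were higher and 5.45% lower. Markers of other cell types were also counted in enterocytes, with no marker at 0 in any list. The 7 stem markers summed to 477 to 753 CPM in control and 727 to 822 in ketogenic enterocytes. In stem cells they summed to 2007 to 2041. The 6 transit amplifying markers summed to 336 to 369 and 324 to 382, against 866 to 950 in their own type. Goblet markers were at 483 to 562 and 499 to 539. The 7 Paneth markers were at 99.0 to 173 and 214 to 376. Enteroendocrine and tuft markers reached at most 26.7 and 6.15. The 9 enterocyte markers themselves summed to 3992 to 4125 and 6173 to 11421. They include Fabp1, whose values are given above, so this sum does not show a rise of the other enterocyte markers. The part of all these markers in the P450 values was not tested.

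P450 levels differed within enterocytes. Enterocytes of each library were split into 3 equal tiers by their share of UMIs from 6 enterocyte genes (Apoa1, Apoa4, Apoc3, Alpi, Fabp2 and Rbp2), a split chosen after the data were seen and given as a description. Of 17 named members, 14 were higher in the highest than in the lowest tier in all 4 libraries and 3 were lower. Cyp27a1, Cyp11a1 and Cyp17a1, named only as the most abundant of their families, were left out. The share over all genes was not computed, so the count cannot be read as particular to P450 genes. Some members rest on few UMIs. Cyp3a11 in ketogenic 1 had 2 in the lowest and 3 in the highest tier, and Cyp4a10 in control 1 had 0 and 4. Cyp4f14 was 6.23 to 12.8 times as high in the highest tier, Cyp3a13 9.53 to 18.8 times, and Cyp2c68 8.90 to 16.4 times. Cyp2e1 ran the other way, at 8.12, 17.4, 6.68 and 11.8 CPM in the lowest tier and 0.862, 1.70, 2.64 and 3.20 in the highest. Cyp20a1 and Cyp39a1 were also lower in the highest tier. In ketogenic enterocytes 320 of 346 Cyp4a10 UMIs (92.5%) came from the highest tier.

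Cyp4f14, Cyp3a13 and Cyp4a10 did not overlap between the diets in the highest tier. The same held for Cyp2j6, Cyp2u1, Cyp3a11 and Cyp4v3, lower on the ketogenic diet, and for Cyp2c66, Cyp2s1 and Cyp2e1, higher on it. The share of all genes without overlap in this tier was not computed. Cyp4f14 stood there at 252 and 215 CPM in control 1 and control 2 and at 131 and 103 in ketogenic 1 and ketogenic 2, and Cyp3a13 at 97.6 and 75.7 against 47.0 and 36.0. Cyp4a10 stood at 0.575 and 1.13 against 40.2 and 17.1. Cyp2d26, whose diets were apart in all enterocytes, overlapped in this tier, at 37.1 and 46.9 against 41.7 and 30.8. The share of the 6 genes in the highest tier was 0.571 and 0.652% of UMIs in control and 1.16 and 0.646% in ketogenic enterocytes, so ketogenic 1 was the highest on the sorting genes too. Median depth in the highest tier was 8295 to 11336 UMIs per cell, against 6694 to 9312 in the lowest.

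**Figure D3:**
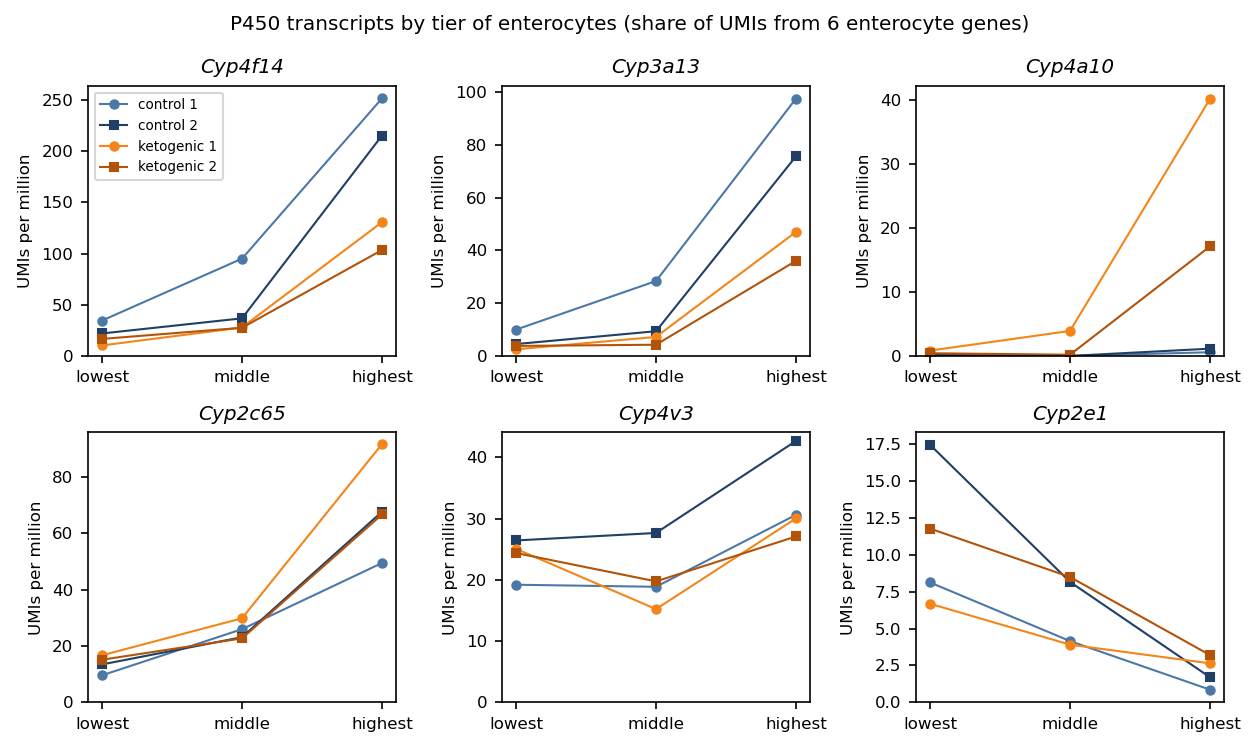
Each panel is a P450 gene; the horizontal axis gives the tier of enterocytes by share of UMIs from 6 enterocyte genes, the vertical axis CPM from 0, and each line is 1 library. Cyp4f14, Cyp3a13 and Cyp2c65 climb to the highest tier in every library, Cyp4a10 does so in the ketogenic libraries (40.2 and 17.1), and Cyp2e1 declines.

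Across the 7 cell types, 14 of the 33 genes had their highest mean in enterocytes, 8 in tuft cells, 6 in stem cells, 4 in enteroendocrine cells and 1 in transit amplifying cells. For the 26 genes with at least 50 UMIs over all cells these numbers were 11, 6, 6, 3 and 0. Some rest on few UMIs in a small type, such as Cyp2c44 on 1 in enteroendocrine cells and Cyp3a11 on 5 in tuft cells. Each type was normalised on its own, so levels set across types are approximate. In 5 of the 14 enterocyte genes every enterocyte library lay above every library of every other type: Cyp4f14, Cyp4f16, Cyp3a13, Cyp3a25 and Cyp2c65. Cyp4f14 was at 86.4 ± 38.4 CPM in enterocytes (SD, n = 4 libraries of both diets) and next at up to 45.5 in a tuft cell library. Cyp2c65 was at 37.9 ± 8.10 in enterocytes, followed by transit amplifying cells at 20.9 ± 5.54.

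Enterocyte genes were also counted in cells of the other types. The 6 enterocyte genes above stood in goblet cells at 0.0274 to 1.45 times their enterocyte level, in stem cells at 0.0378 to 0.336 times and in tuft cells at 0 to 0.155 times. In goblet cells the highest of the 6 genes stood at 0.770 to 1.45 times its enterocyte level. A level below it there therefore tells nothing of the source of the UMIs. The ratio for Cyp4f14 was 0.0517 to 0.10 in goblet cells, below the highest of the 6 genes in every library. It was 0.0760 to 0.239 in stem cells, above all 6 genes in 1 library, and 0.276 to 0.683 in tuft cells, above all 6 in each library. Cyp4a10 in ketogenic stem cells (3 and 2 UMIs, 0 in control stem cells) had a ratio of at most 0.111, and in goblet cells of at most 0.0744. Both were below the highest of the 6 genes in each ketogenic library, while the control libraries held no Cyp4a10 UMI in these types and could not differ. The source of its UMIs in these cells was not tested.

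Cyp4b1 was highest in enteroendocrine cells, the hormone cells of the gut. Its level there was 126 and 66.01 CPM in control 1 and control 2 and 60.4 and 63.8 in ketogenic 1 and ketogenic 2, and no library of another type exceeded 6.23. The mean was 20.5 times that of enterocytes, the next type, and 9.54 to 46.8 times within a library. In each library 18.2 to 36.5% of enteroendocrine cells held a Cyp4b1 UMI, against 1.52 to 4.63% of enterocytes, which had the greater depth per cell (medians of 7342 to 9629 UMIs, against 5033 to 6624.5). The gene is described here after its values were seen.

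Within enteroendocrine cells the level went with Tph1, the enzyme that starts serotonin synthesis. In the 12, 10, 23 and 13 cells with at least 3 Tph1 UMIs, Cyp4b1 stood at 515, 373, 174 and 158 CPM in control 1, control 2, ketogenic 1 and ketogenic 2. In the other enteroendocrine cells it stood at 53.4, 44.9, 44.2 and 49.3. The cells with Tph1 were higher in all 4 libraries, on counts of only 32, 14, 22 and 11 UMIs. The split was chosen after the data were seen and carries no test.

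The diet difference of Cyp4b1 went in opposite directions in the 2 cell types. In enteroendocrine cells both ketogenic libraries lay below both control libraries (log2 fold change -0.54 ± 0.27, edgeR adjusted p = 1.00), and in enterocytes both lay above. A test of the difference between the 2 diet effects, run after these values were seen, gave 1.55 ± 0.37 on the log2 scale (SE, 8 sums with library as a block; edgeR adjusted p = 0.0377). It was the 1 member of that fit to pass, where 0.22% of all genes did. The call was lost without control 1 (1.21, adjusted p = 0.548) and without ketogenic 1 (1.14, adjusted p = 1.00). Without control 1 the enteroendocrine log2 fold change was -0.11. The 8 enteroendocrine markers, none at 0, summed in enterocytes to 22.1 to 25.4 CPM in control and 26.6 to 26.7 in ketogenic libraries, and their part in the enterocyte level of Cyp4b1 was not tested.

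Tuft cells, the chemosensory cells, held the highest levels of Cyp2j6: 82.8 and 101 CPM in control 1 and control 2 and 97.6 and 96.2 in ketogenic 1 and ketogenic 2, while enterocytes reached at most 55.0. All 4 tuft libraries lay above every library of the other types. Cyp17a1, the steroid hydroxylase, gave 20 of its 27 UMIs in tuft cells, at 1.76, 13.2, 7.05 and 4.69 CPM, and at most 0.275 elsewhere. Cyp20a1 was at 35.5 ± 7.33 in tuft cells and next at 23.2 ± 4.32 in Paneth cells, whose libraries overlapped with it. In tuft cells 0 of 6 tested members passed between the diets, where 0.0144% of genes did in edgeR. DESeq2 called 0, and 0 met an unadjusted p under 0.05, where 5.34% of genes did.

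Stem cells held the highest mean of Cyp2e1, at 17.9 and 20.9 CPM in control 1 and control 2 and 8.95 and 25.7 in ketogenic 1 and ketogenic 2. The ketogenic libraries spread on both sides of the control ones. Cyp4v3 was at 31.4 ± 2.96 in stem cells and 26.0 in mean in enterocytes, and the libraries of the types overlapped. Cyp39a1 and Cyp4f15 also had their highest mean in stem cells, again with overlap. Goblet and Paneth cells, the secretory cells for mucus and antimicrobial peptides, held the highest mean of no member.

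**Figure D4:**
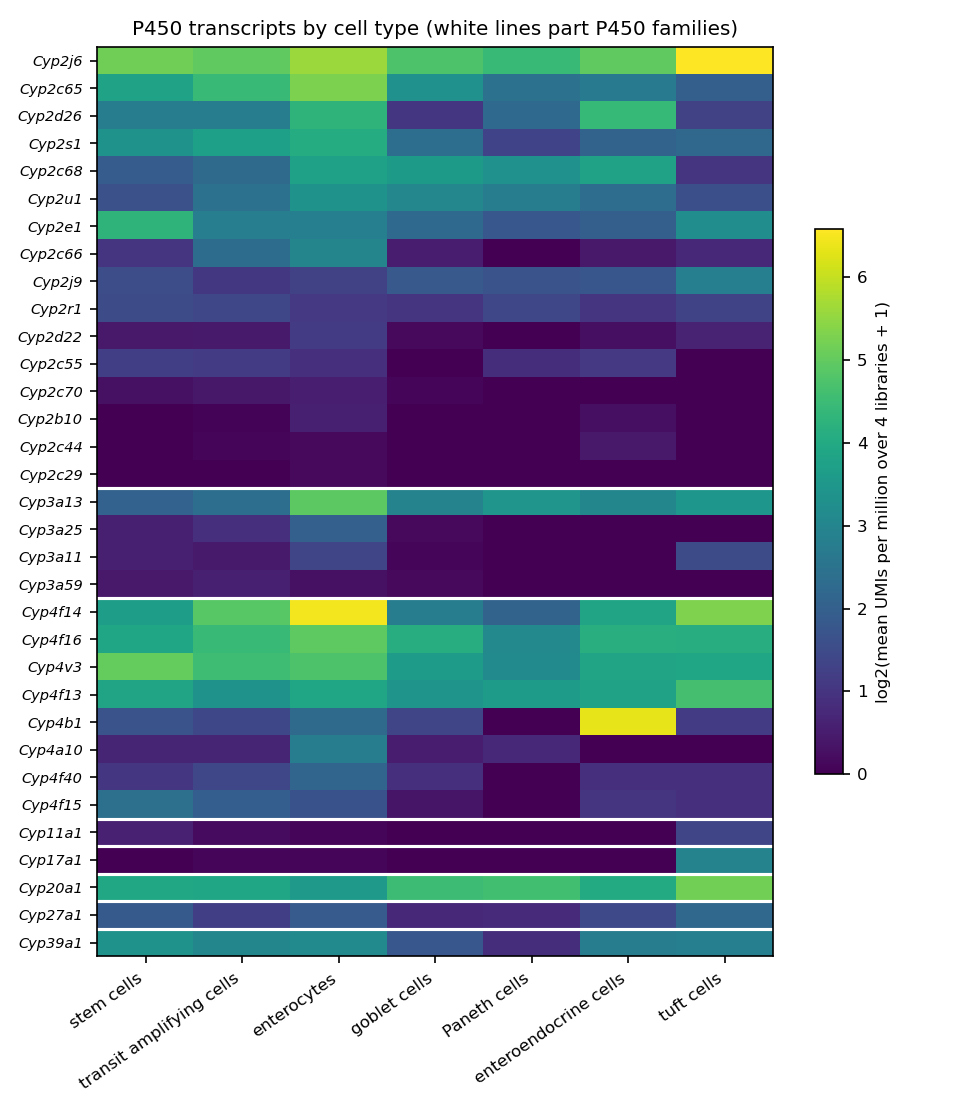
Rows are the 33 P450 genes, parted by white lines into families, columns are the 7 cell types, and the colour gives log2(mean CPM over 4 libraries + 1), each type normalised on its own. Bright cells mark Cyp4f14 in enterocytes (86.4), Cyp2j6 in tuft cells (94.4) and Cyp4b1 in enteroendocrine cells (78.9).

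In transit amplifying cells, the dividing precursors, 0 of 16 tested members passed between the diets, where 0.715% of all genes did in edgeR. DESeq2 called 0, and 4 met an unadjusted p under 0.05, where 9.21% of genes did. Cyp2c65 was at 15.5 and 17.1 CPM against 26.9 and 24.3, with a log2 fold change of 0.64 ± 0.17 (edgeR adjusted p = 0.138). Cyp2c66 was at 2.18 and 2.15 against 6.32 and 5.22, on 9, 12, 23 and 23 UMIs (1.39 ± 0.37, edgeR adjusted p = 0.149). Both CYP2C neighbours had their ketogenic libraries above the control ones, and since 21.5% of the 3' windows of Cyp2c66 are also in Cyp2c65, their counts may not be separate readings. Cyp4f14 was at 39.7 and 30.0 against 20.1 and 23.4 (-0.66 ± 0.17, edgeR adjusted p = 0.138), and Cyp2d26 at 7.26 and 7.72 against 4.12 and 3.86 (-0.91 ± 0.30, edgeR adjusted p = 0.314). Relative to enterocytes, Cyp4f14 (0.296 to 0.446 times) and Cyp2d26 (0.227 to 0.374) were above all 6 enterocyte genes in 0 libraries. Cyp2c65 (0.463 to 0.662) and Cyp2c66 (0.363 to 0.674) were above them in 3. The 9 enterocyte markers, Fabp1 among them, summed in these cells to 978 to 1016 CPM in control and 2091 to 3216 in ketogenic libraries. The source of these P450 UMIs was not tested. Without control 2, 3 members passed: Cyp2c65 higher, and Cyp4f14 and Cyp3a13 lower, in a fit where 290 genes passed, against 72 with all libraries.

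In stem cells 0 of 12 tested members passed, where 0.336% of genes did in edgeR. DESeq2 called 0, and 1 met an unadjusted p under 0.05, where 6.42% of genes did. Cyp4f14 was at 10.2 and 11.7 CPM against 14.3 and 10.8, with the diets overlapping. Cyp4f13 was at 8.68 and 12.3 against 16.1 and 16.6 (log2 fold change 0.60 ± 0.27, edgeR adjusted p = 0.707), with no overlap.

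In goblet cells 0 of 14 tested members passed, where 0.521% of genes did in edgeR. DESeq2 called 0, and 1 met an unadjusted p under 0.05, where 8.96% of genes did. Cyp2c65 was at 4.63 and 7.13 CPM against 15.1 and 9.29 (log2 fold change 1.04 ± 0.31, edgeR adjusted p = 0.209), and it passed without control 2 (1.38, adjusted p = 0.00702) and without ketogenic 2 (1.36, adjusted p = 0.0120), in fits where 180 and 121 genes passed, against 52 with all libraries. Its level in goblet cells was 0.157 to 0.311 times that in enterocytes. The 6 enterocyte genes covered a wide range there, 0.0274 to 1.45 times, so lying within it tells nothing of the source.

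In enteroendocrine cells 0 of 4 tested members passed, where 0.0582% of genes did in edgeR. DESeq2 called 0, and 0 met an unadjusted p under 0.05, where 4.61% of genes did. Without control 2, Cyp4b1 passed as lower (-1.02, adjusted p = 0.0240), in a fit where 94 genes passed, against 4 with all libraries. No member had enough UMIs to be tested in Paneth cells, with 35 to 56 cells per library.

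**Figure D5:**
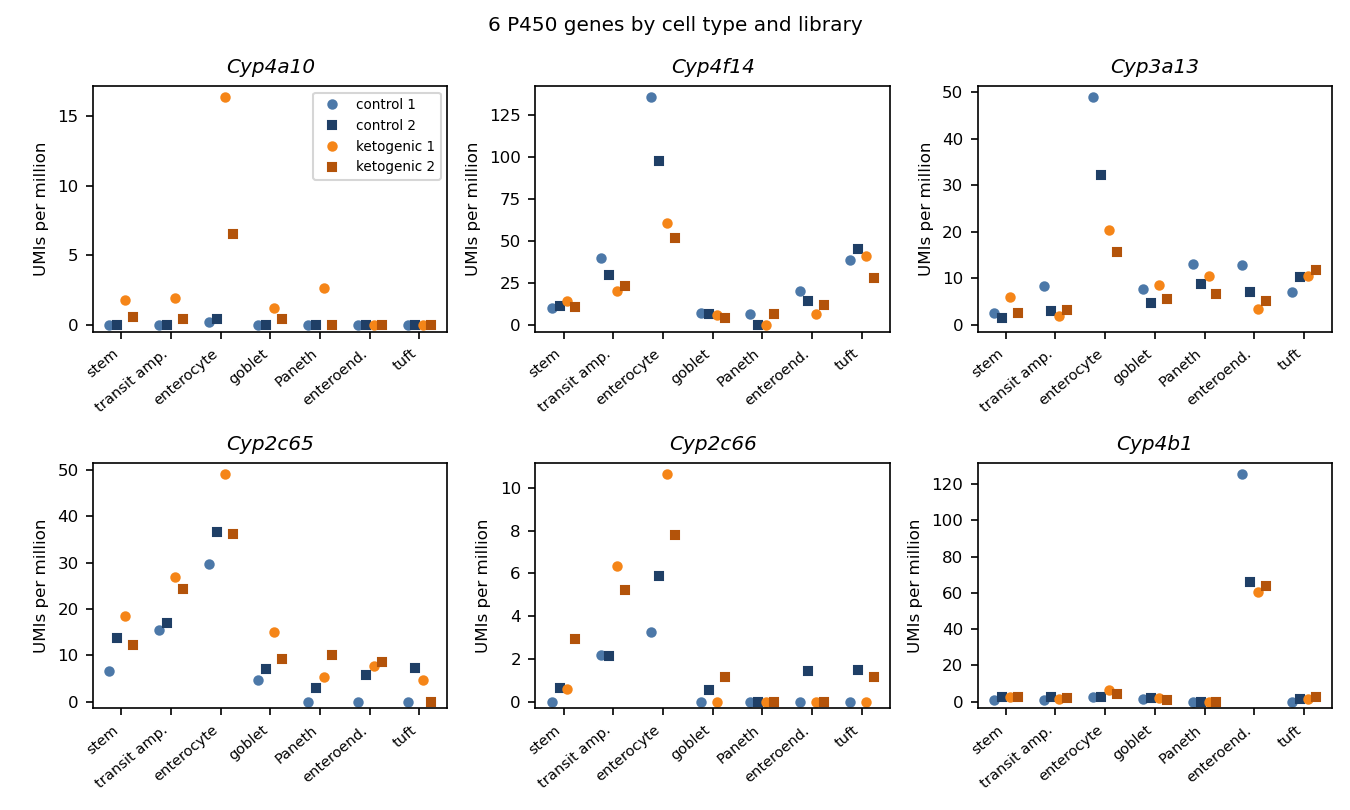
Each panel is a P450 gene, the horizontal axis gives the 7 cell types and the vertical axis CPM, with 1 point per library. Cyp4a10 stands out in ketogenic enterocytes (16.3 and 6.51), Cyp2c65 and Cyp2c66 have their ketogenic points above the control points in transit amplifying cells, and Cyp4b1 is high in enteroendocrine cells.

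The diet effect in enterocytes was set against that in stem cells and in transit amplifying cells, in 1 fit per pair of types. Against stem cells 0 members passed, where 0.259% of genes did (edgeR; Cyp4f14, Cyp3a13, Cyp3a11 and Cyp4f13 met an unadjusted p under 0.05; DESeq2 was not run on this test). The enterocyte minus stem cell log2 fold change was -1.17 ± 0.29 for Cyp4f14 (adjusted p = 0.0879) and -2.14 ± 0.55 for Cyp3a13 (adjusted p = 0.107). Against transit amplifying cells 0 members passed, where 0.0871% of genes did, and Cyp2u1 had the smallest p, with a difference of -1.58 ± 0.36 (edgeR adjusted p = 0.116). Without control 2 the differences of Cyp4f14 (-1.58, adjusted p = 0.00144) and Cyp3a13 (-2.09, adjusted p = 0.0475) against stem cells and of Cyp2u1 (-1.82, adjusted p = 0.00157) against transit amplifying cells passed, in fits where 358 and 220 genes did, against 30 and 10 with all libraries. For Cyp4a10 the differences had standard errors above 2 on the log2 scale, since stem cells and transit amplifying cells held few of its UMIs, and they are not given.

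In counts summed over all cells of a library, 0 of 26 tested members passed, where 0.172% of genes did in edgeR. At an unadjusted p under 0.05, 2 were higher and 6 lower, where 5.62% of genes were higher and 5.33% lower. Without overlap, 5 were higher and 7 lower, where 22.4% of genes were higher and 21.1% lower. DESeq2 called Cyp4a10 higher and Cyp4f14 and Cyp3a13 lower, among 208 genes in all. Such sums cannot tell fewer cells of a type from less RNA per cell. Cyp4a10 gave 4 and 9 UMIs against 252 and 116, with a log2 fold change of 4.95 ± 0.61 (edgeR adjusted p = 0.0538), and it passed when the cell types were given equal weight in each library (5.03, adjusted p = 0.0493). It also passed without any 1 of the 4 libraries, with log2 fold changes of 4.15 to 5.52.

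Genes that work with P450 enzymes were followed as lists chosen with earlier results of these data known. In enterocytes, 0 of 10 tested electron donors passed in edgeR, with a median log2 fold change of -0.07 against 0.02 over all genes tested. At an unadjusted p under 0.05, where 4.46% of all genes were higher and 5.45% lower, 1 was higher and 0 lower. That 1 was Por, the reductase that feeds all microsomal P450 enzymes, at 37.1 and 30.7 CPM against 68.7 and 52.1 (log2 fold change 0.83 ± 0.17, edgeR adjusted p = 0.145), with no overlap. Cyb5a, another electron donor, was at 358 and 317 against 303 and 286. A further list held receptors that control P450 genes and the transcription factors Arnt, Dbp, Tef and Hlf. Of its 20 tested genes 0 passed, with a median of -0.01. At an unadjusted p under 0.05, where 4.46% of all genes were higher and 5.45% lower, 2 were higher and 2 lower. Ppara was at 9.22 and 8.64 against 14.6 and 11.9 (0.57 ± 0.16, edgeR adjusted p = 0.292) and Ppard at 60.4 and 49.0 against 27.1 and 33.8 (-0.84 ± 0.16, edgeR adjusted p = 0.123). The drug sensors Nr1i2 and Nr1i3, the dioxin receptor Ahr and Hnf4a overlapped between the diets.

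Conjugation enzymes, which add sugar, sulfate or glutathione to P450 products, split in direction. Of 34 tested in enterocytes 0 passed, with a median log2 fold change of 0.14. At an unadjusted p under 0.05, 6 were higher and 5 lower, where 4.46% of all genes were higher and 5.45% lower. Gsta1 was at 157 and 153 CPM against 101 and 66.9 (-0.89 ± 0.19, edgeR adjusted p = 0.164) and Gsta4 at 45.7 and 56.8 against 23.6 and 29.6 (-0.94 ± 0.16, edgeR adjusted p = 0.104). Gstm3 was at 56.7 and 56.5 against 124 and 66.4 (0.75 ± 0.26, edgeR adjusted p = 0.415). Among 6 tested efflux pumps 0 passed, with 1 higher and 1 lower at an unadjusted p under 0.05. Abcb1a, which exports drugs into the lumen, was at 14.1 and 12.7 against 27.6 and 17.9 (0.76 ± 0.21, edgeR adjusted p = 0.284). None of 11 heme enzymes and none of 2 epoxide hydrolases passed or met an unadjusted p under 0.05. The genes named from these lists were chosen after their values were seen.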

How the data were processed

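Single-cell suspensions of small intestine were made into 10x 3' v2 libraries, per the labels' protocols. The authors deposited UMI counts, not normalised, as 1 matrix of genes by cells, and a table naming the library and cell type of each cell. Cell Ranger 2.1.0 and mm10 are named in the submitters' processing notes; no source used here describes cell filters, doublet handling or cell typing. No cells were filtered or clustered again.

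For each library, counts were added up in each cell type and in all cells together. Sums were tested ketogenic against control with edgeR 4.0.16 in R 4.3.3 (quasi-likelihood test, TMM, filterByExpr, Benjamini-Hochberg over all genes of a fit, threshold 0.05). DESeq2 1.42.0 was an alternative. Levels are CPM with TMM-adjusted totals, and a standard error is the log2 fold change divided by the root of F. Tiers of enterocytes use plain totals. The fits were tested on simulated counts. Intervals cover counting error only. The 2 libraries of a diet were not copies of each other: a chi-square of their counts was 28.3 (control) and 21.3 (ketogenic) times its degrees of freedom.

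Genes given with values are members past the threshold in any of 8 fits, the 15 with the highest mean in all cells, the most abundant of each family, and members with an unadjusted p under 0.05, no overlap and an absolute log2 fold change of at least 1 in enterocytes (20 of 33). Other genes named were chosen after their values were seen. Members and lists were chosen with earlier results of these data known. Enterocytes could not be ranked by villus tip markers, since 52.3 to 70.4% of them had 0 such UMIs, and 6 enterocyte genes were used in their place. In the marker lists 2 further genes are not reported here and entered no sum. Promoters are RefSeq's (GRCm38.p6), where 27 of 33 members matched, and gene positions are from GENCODE M21, where 32 matched. Alternatives were RLE scaling, no filter, the replicate number as a block, cells under 10% mitochondrial UMIs, thinned sums, equal weights of cell types, enterocytes without distal cells, and leaving out each library.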

Additional observations from a re-analysis of the deposited data

Results flagged for a closer look

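Cyp4b1 is listed because its diet effect differed between enterocytes and enteroendocrine cells, by 1.55 on the log2 scale in the edgeR test of the difference (adjusted p = 0.0377), which was run after the values were seen. The call was lost without control 1 (1.21, adjusted p = 0.548) and without ketogenic 1 (1.14, adjusted p = 1.00). Its log2 fold change was 0.98 in enterocytes, where both ketogenic libraries were above both control libraries, and -0.54 in enteroendocrine cells, where both were below.

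Cyp2d26 is listed because every ketogenic library lay above the control libraries in enteroendocrine cells (log2 fold change 0.32, on 5, 15, 26 and 14 UMIs) and below them in enterocytes (-0.36) and in transit amplifying cells (-0.91). The difference between enterocytes and enteroendocrine cells was -0.68 ± 0.43 (edgeR adjusted p = 1.00) and did not pass. The difference between transit amplifying and enteroendocrine cells was not tested.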

How the results depend on the processing

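Cyp4a10 in enterocytes kept its direction and its call in all 11 alternatives. The count of members called in enterocytes was 1; it was 5 with no filter on low counts, 4 with the replicate block, 2 with cells under 10% mitochondrial UMIs, 4 by DESeq2, and 1 to 5 when each library was left out. In all cells it was 0; it was 5 with no filter, 3 with the replicate block, 3 by DESeq2, 1 with equal weights of cell types, and 1 to 5 without each library. In transit amplifying cells it was 0; it was 3 with no filter, 2 with the replicate block, 1 with cells under 10% mitochondrial UMIs, and 0 to 3 without each library. Without each library it was 0 to 1 in goblet and in enteroendocrine cells. For the difference from enterocytes it was 2 with no filter and 0 to 2 without each library for stem cells, 1 with no filter and 0 to 1 for transit amplifying cells, and 0 to 1 for enteroendocrine cells. All genes called in enterocytes numbered 21, against 313 with no filter, 137 with the replicate block, 51 with cells under 10% mitochondrial UMIs, 176 by DESeq2 and 12 to 760 without each library. In all cells they numbered 22, against 407, 69 and 208 with no filter, with the replicate block and by DESeq2, 36 with equal weights of cell types and 29 to 364 without each library. In transit amplifying cells they numbered 72, against 279 with no filter, 200 with the replicate block, 103 with cells under 10% mitochondrial UMIs and 37 to 290 without each library. Without each library they numbered 99 to 189 in goblet cells, against 52, and 11 to 94 in enteroendocrine cells, against 4. For the difference from enterocytes they numbered 30 for stem cells (49 with no filter, 14 to 358 without each library), 10 for transit amplifying cells (20 and 8 to 220) and 27 for enteroendocrine cells (16 to 69 without each library). With no filter the fit tests more genes; for the other changes the cause was not tested. In enterocytes 8 weak log2 fold changes changed sign, none of them called. On leaving out a library they spanned, with the opposite sign included, -0.29 to 0.034 for Cyp4f16, -0.47 to 0.015 for Cyp4v3, -0.20 to 0.29 for Cyp20a1, -0.31 to 0.13 for Cyp4f13, -0.067 to 0.14 for Cyp2s1, -0.16 to 0.37 for Cyp2c68, -0.55 to 0.53 for Cyp2e1 and -0.31 to 0.53 for Cyp27a1. With cells under 10% mitochondrial UMIs Cyp2c68 was at -0.25.

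The correlation of same-numbered deviations over all genes was -0.0374 to 0.0828 in the 8 fits. Such a correlation cannot show whether same-numbered libraries share a batch, and this was not tested. The share of enterocytes with at least 10% mitochondrial UMIs was 51.1% in control 1 and 50.1% in ketogenic 1. It was 43.7% in control 2 and 44.5% in ketogenic 2. Goblet cells went the other way, at 19.3 and 16.6% in control 1 and ketogenic 1 against 21.9 and 17.0%. Paneth, enteroendocrine and tuft cells, with 35 to 186 cells per library, let 0, 4 and 6 members be tested, and differences in the others were not detectable at this depth.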
